A study of Mus musculus with 7 samples.

Results

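The spliceosome removes introns from messenger RNA precursors, and here the transcripts of 51 of its core proteins were followed in LSK cells. These are sorted as Lin-Sca1+Kit+ and comprise stem cells and multipotent progenitors of the bone marrow. The 51 genes were taken by symbol from a list chosen by role and not by a threshold on measured values, although earlier results of these data were known when it was drawn up. They encode proteins of the U1 and U2 particles, the Sm ring, the tri-snRNP, the Prpf19 complex and the catalytic steps, and DEAD and DEAH box helicases, SR proteins and hnRNP proteins were not among them. They made up 51 of the 24421 gene symbols with counts. All 51 passed the filter on low counts and were among the 13340 genes tested. All 51 are annotated as protein coding, and they lie on 17 chromosomes of the GRCm38 (mm10) assembly.

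RNA-seq counts came from 7 samples, 4 from recipients of Ddx41+/+ marrow (replicates 1 to 4) and 3 from recipients of Ddx41+/- marrow (replicates 6 to 8). Both kinds of donor cell carried RosaCreERT2, a Cre recombinase that tamoxifen activates and that the Rosa26 promoter drives in nearly all cell types. Donors of Ddx41+/- cells had 1 floxed and 1 wild-type Ddx41 allele, whereas Ddx41+/+ donors had wild-type alleles alone. Lethally irradiated BoyJ recipients received bone marrow mononuclear cells. Recipients were then given 1 mg of tamoxifen daily in 2 rounds of 5 days, with 2 days between the rounds. Marrow was harvested 8 weeks after the transplant. Donor and recipient ages are not given in the sources used here. The gate that the labels name holds no donor antigen, so any LSK cells that recipients kept cannot be told apart from donor cells. The name of the deposited table says that a Ddx41+/- library numbered 5 was removed from it, and that library was not analysed here. The labels do not state that each sample was a separate mouse, and p-values measure only the spread between these samples.

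Spliceosomes assemble anew on each intron from small nuclear ribonucleoprotein particles (snRNPs), each an RNA with its own proteins. The U1 particle pairs with the 5′ splice site, U2 pairs with the branch site next to the 3′ splice site, and the tri-snRNP of U4, U6 and U5 then joins, after which U4 leaves and the Prpf19 complex helps to form the active site. In myeloid neoplasms some of these proteins, such as SF3B1, U2AF1 and ZRSR2, are mutated, and DDX41, a DEAD-box RNA helicase, is a further myeloid neoplasm gene that associates with spliceosomes. The comparison asked whether cells with 1 Ddx41 allele held different levels of the transcripts for the machinery itself.

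Total counts per sample ranged from 32234499 to 43751290. Levels are given as CPM, counts scaled to a common library size after adjustment of the library sizes by the trimmed mean of M values (TMM). Ddx41 was 97.9 ± 6.43 CPM in Ddx41+/+ (SD, n = 4) and 67.3 ± 2.62 CPM in Ddx41+/- (SD, n = 3), and no Ddx41+/- sample reached the lowest Ddx41+/+ sample. The difference was -0.54 on the log2 scale (SE 0.071, edgeR adjusted p = 0.0052) and served as the reference for size. Kit was at 427 to 505 CPM and Ly6a, which encodes Sca1, at 13.3 to 30.5 CPM across the samples. Of 9 LSK markers, 8 had a negative log2 fold change, 6 of them at an edgeR unadjusted p under 0.05 and 1 (Gata2) after adjustment, and their summed level was 1775 to 1960 CPM in Ddx41+/+ and 1609 to 1743 CPM in Ddx41+/-. Of 11 neutrophil genes, all 10 in the table were at an unadjusted p under 0.05 in the positive direction and 1 (Mmp9) passed adjustment. Their sum, mostly the primary granule gene Mpo that early myeloid progenitors also express, was 15653 to 19113 CPM in Ddx41+/+ and 19904 to 21830 CPM in Ddx41+/-. The 13 proliferation genes summed to 5745 to 5821 CPM in Ddx41+/+ and 5925 to 6029 CPM in Ddx41+/-, but 9 of them had a negative log2 fold change and the median was -0.0069. Mki67 (log2 fold change 0.26) and Top2a (0.15) were at an unadjusted p under 0.05, and no proliferation gene passed the test. Summed levels of the B-lineage, T and NK, erythroid, macrophage, and stromal and endothelial lists overlapped between genotypes and reached at most 283 CPM, with Hba-a1, Hbb-bs and Hbb-bt at 0 in every sample. All 7 B-lineage genes and all 5 macrophage genes were nevertheless higher on average in Ddx41+/-, 2 and 0 of them at an unadjusted p under 0.05, and none passed the test. Most of the T and NK sum was Nkg7 (221 to 281 CPM), and most of the stromal and endothelial sum was Pecam1 (132 to 156 CPM). In Ddx41+/- replicate 8 Col1a1 was at 14.9 CPM and Col1a2 at 16.8 CPM. All other samples had 0.822 to 2.2 CPM and 3.23 to 5.03 CPM. Of the 5 stromal and endothelial genes, 3 had a positive and 2 a negative log2 fold change. The part of these cell type differences in the spliceosome values below was not tested. In bulk samples fewer cells of a type and less RNA per cell cannot be told apart.

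Transcripts for the core spliceosome were at nearly the same level in both genotypes. The 51 genes together took 0.891% ± 0.0156 of all counts in Ddx41+/+ (SD, n = 4) and 0.891% ± 0.0144 in Ddx41+/- (SD, n = 3). No member passed the edgeR test at an adjusted p under 0.05, against 0.217% of all genes tested (29 of 13340), and the smallest adjusted p of a member was 0.361. At an unadjusted p under 0.05 there were 3 members (5.88%), 1 higher and 2 lower in Ddx41+/-, where 10.6% of all genes were past this threshold (5.7% higher and 4.93% lower). DESeq2 and limma-voom also called no member after adjustment, and each had the same 3 at an unadjusted p under 0.05, Prpf3, Ppil1 and Cwc22. Without Ddx41+/- replicate 7 only Ppil1 was left at that threshold, while 6 members were past it without Ddx41+/+ replicate 1.

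Log2 fold changes of the members ran from -0.18 (Prpf3) to 0.17 (Cwc22), so none exceeded 0.2 in either direction. Of all 13340 genes tested 3760 did, and of the 5934 genes at or above the level of the lowest member 497 did. The 5934 genes were not otherwise matched to the members in level. Positive values were found for 28 members and negative ones for 23. The median was 0.0048, against -0.0048 over all genes tested, and it lay between -0.016 and 0.016 in the alternative fits, with a change of sign under library totals, upper-quartile scaling, quality weights and several omissions of a library. For 49 of 51 members (96.1%) the 95% interval of the log2 fold change lay within 0.32 of 0 on both sides (0.32 being a rise of 25%), whereas 45.4% of all genes tested and 81.7% of the 5934 genes at or above the level of the lowest member had such an interval. The exceptions were Snrpg, with an interval of the log2 fold change from -0.41 to 0.073, and Snrpb2, with -0.074 to 0.34. Prpf3, Cwc22 and Snrpd1 were only just inside, with a bound at -0.32, 0.32 and 0.32. Every one of the 51 intervals lay above the Ddx41 value of -0.54, as did those of 10289 of the 13340 genes tested and of 5884 of the 5934 genes at or above the level of the lowest member.

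**Figure D1:**
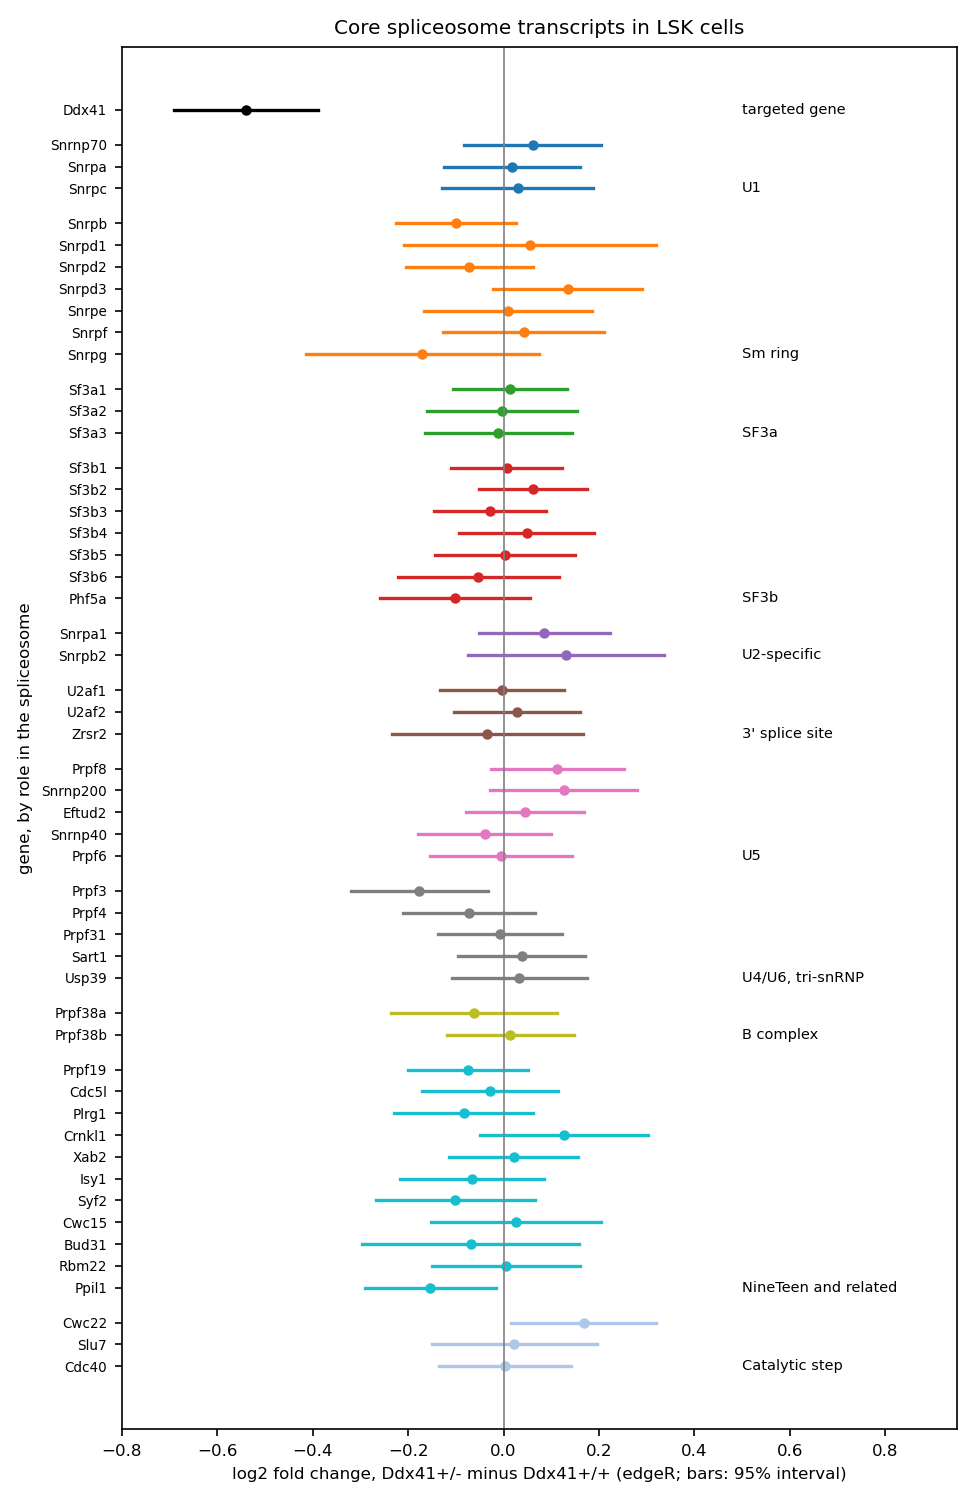
Log2 fold change (x axis, Ddx41+/- minus Ddx41+/+) of Ddx41 (black) and the 51 core spliceosome genes (y axis, grouped and coloured by role), where points are edgeR estimates and bars are 95% intervals. Ddx41 sits at -0.54, and the spliceosome genes lie between -0.18 and 0.17 with only the intervals of Prpf3, Ppil1 and Cwc22 clear of 0.

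The genotypes did not overlap in CPM for 4 members, or 7.84% of the list, against 10.1% of all genes tested (4.84% higher and 5.22% lower). The first was Prpf3 (chromosome 3, 95830124 to 95855885), which encodes a U4/U6 protein that keeps the tri-snRNP together and is mutated in a form of inherited retinal degeneration. Its level was 69.7, 67.5, 72.9 and 69 CPM in Ddx41+/+ replicates 1 to 4 and 63.1, 59.7 and 62.4 CPM in Ddx41+/- replicates 6 to 8. All 3 Ddx41+/- samples were thus below all 4 Ddx41+/+ samples, at 88.5% of the Ddx41+/+ mean. This gave a log2 fold change of -0.18 (SE 0.068, edgeR unadjusted p = 0.0191, adjusted p = 0.361). Of the 3 members with an unadjusted p under 0.05, Prpf3 was the steadiest, since it stayed at that threshold in 15 of 16 alternative fits, all but the one without Ddx41+/- replicate 7.

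Ppil1 (chromosome 17, 29250803 to 29264186) encodes a peptidyl-prolyl isomerase of the activated spliceosome. It was at 96.3, 105.9, 104.9 and 101.5 CPM in Ddx41+/+ and at 92.2, 93.98 and 89.4 CPM in Ddx41+/-. The gap between the genotypes was narrow, since Ddx41+/+ replicate 1 was closer to the Ddx41+/- samples than to the other control samples. Ppil1 reached 89.9% of the Ddx41+/+ mean (log2 fold change -0.15, SE 0.065, edgeR unadjusted p = 0.0307, adjusted p = 0.408) and was at an unadjusted p under 0.05 in 12 of 16 alternatives.

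Cwc22 (chromosome 2, 77881159 to 77946375) went the other way. Its protein brings the exon junction complex helicase Eif4a3 to the spliceosome and is required for catalytic activation. Cwc22 was at 68.3, 71.4, 66.7 and 61.5 CPM in Ddx41+/+ and at 74.99, 78.4 and 72.5 CPM in Ddx41+/-, and the Ddx41+/- mean was 112.4% of the Ddx41+/+ mean. Every Ddx41+/- sample was above every Ddx41+/+ sample, and Ddx41+/- replicate 8 was only just above Ddx41+/+ replicate 2. The log2 fold change of 0.17 (SE 0.072) had an edgeR unadjusted p of 0.0326 and an adjusted p of 0.414, and 11 of 16 alternatives kept an unadjusted p under 0.05. Of the 75-base windows of the longest Cwc22 transcript, 21.3% also occur in transcripts of other genes, 7 in all. Its count may thus have been shared with near-identical copies.

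Sf3b2 (chromosome 19, 5273932 to 5295455), a subunit of the SF3b complex that clamps U2 onto the branch site, had the smallest change of the 4. Its level was 524, 509, 509 and 511 CPM in Ddx41+/+ and 533, 542 and 531 CPM in Ddx41+/-. The gap between the genotypes was small, and so was the spread, with a coefficient of variation of 1.44% over the Ddx41+/+ samples. The Ddx41+/- mean was 104.4% of the Ddx41+/+ mean, with a log2 fold change of 0.062 (SE 0.053) and an edgeR unadjusted p of 0.264 (adjusted p = 0.731).

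**Figure D2:**
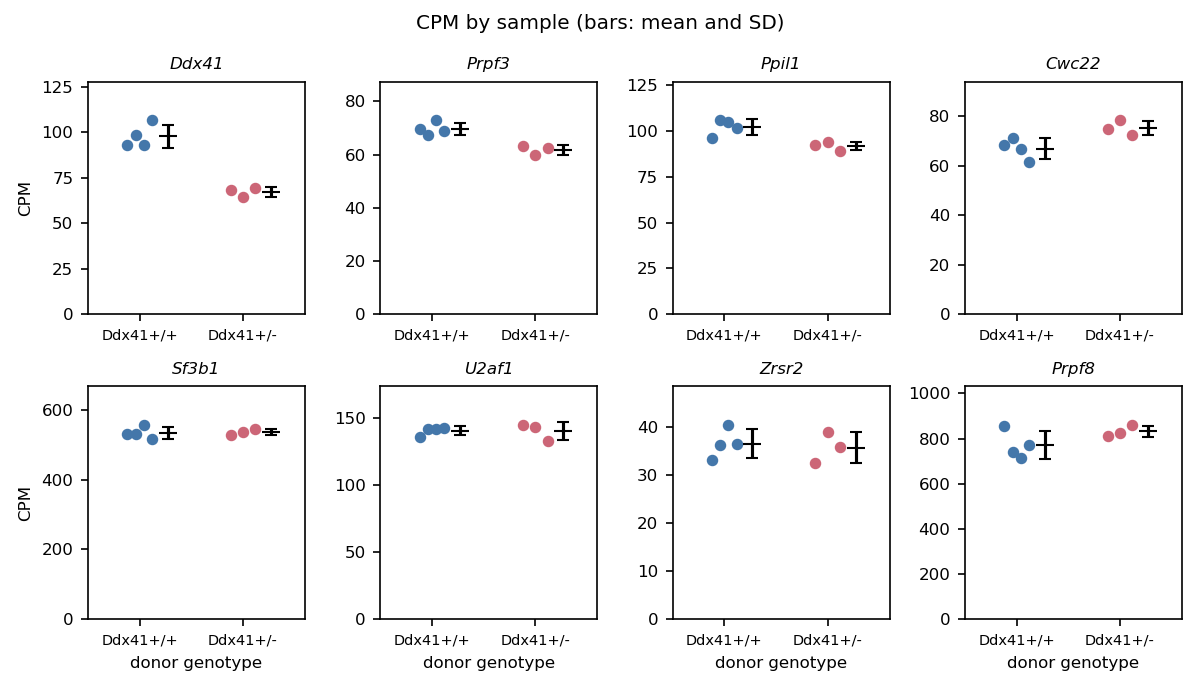
CPM (y axis, from 0) in each sample of both donor genotypes (x axis) for Ddx41 and 7 core spliceosome genes, where points are samples, and horizontal lines with bars are the mean and SD of 4 Ddx41+/+ and 3 Ddx41+/- samples. The genotypes separate for Ddx41, Prpf3, Ppil1 and Cwc22, and overlap for Sf3b1, U2af1, Zrsr2 and Prpf8.

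Promoters of the members were read for what they share beyond the function of their products. RefSeq promoter windows of the GRCm38.p6 assembly, from 250 bases before to 50 bases after a transcription start, were matched by symbol for 40 of the 51 members, using the first start listed where a gene had more (6 members had 2). Printed here are those of the 4 members whose genotypes did not overlap, and that of Sf3a1, which held matches of the most motifs. Each runs 5′ to 3′ on the strand of its gene, and capitals mark motif matches.
Prpf3, chr3:95855836-95856135, minus strand: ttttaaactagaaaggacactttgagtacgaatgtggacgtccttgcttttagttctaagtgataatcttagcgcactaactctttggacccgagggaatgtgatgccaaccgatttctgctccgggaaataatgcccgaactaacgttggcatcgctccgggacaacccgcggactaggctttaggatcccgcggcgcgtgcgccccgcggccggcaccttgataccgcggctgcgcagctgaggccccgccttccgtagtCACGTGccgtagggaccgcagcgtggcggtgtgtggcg
Ppil1, chr17:29263922-29264221, minus strand: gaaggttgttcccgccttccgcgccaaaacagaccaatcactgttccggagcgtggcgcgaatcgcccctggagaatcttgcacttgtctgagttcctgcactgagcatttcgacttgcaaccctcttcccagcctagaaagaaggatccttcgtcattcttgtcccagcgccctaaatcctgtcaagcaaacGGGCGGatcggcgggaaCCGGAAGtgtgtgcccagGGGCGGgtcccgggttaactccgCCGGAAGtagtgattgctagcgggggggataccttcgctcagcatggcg
Cwc22, chr2:77946307-77946606, minus strand: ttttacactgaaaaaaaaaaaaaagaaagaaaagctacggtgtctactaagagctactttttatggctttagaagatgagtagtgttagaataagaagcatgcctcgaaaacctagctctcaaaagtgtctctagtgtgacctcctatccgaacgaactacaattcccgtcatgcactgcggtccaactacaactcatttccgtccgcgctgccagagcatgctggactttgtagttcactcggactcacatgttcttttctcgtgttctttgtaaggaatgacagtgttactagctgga
Sf3b2, chr19:5295408-5295707, minus strand: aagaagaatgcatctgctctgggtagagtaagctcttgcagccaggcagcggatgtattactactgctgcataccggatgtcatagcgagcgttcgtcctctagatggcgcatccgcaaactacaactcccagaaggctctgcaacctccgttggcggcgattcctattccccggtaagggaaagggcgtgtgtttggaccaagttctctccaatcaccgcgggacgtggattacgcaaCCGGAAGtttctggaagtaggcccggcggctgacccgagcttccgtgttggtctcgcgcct
Sf3a1, chr11:4160104-4160403, plus strand: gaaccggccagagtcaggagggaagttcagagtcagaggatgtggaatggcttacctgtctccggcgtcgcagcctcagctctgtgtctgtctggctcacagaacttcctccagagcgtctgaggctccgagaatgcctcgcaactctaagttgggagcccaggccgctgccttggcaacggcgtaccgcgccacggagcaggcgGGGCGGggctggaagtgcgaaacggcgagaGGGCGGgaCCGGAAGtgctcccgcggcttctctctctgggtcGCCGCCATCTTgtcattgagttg

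Both strands of each window were searched for 5 motifs, and matches of different motifs did not overlap in any member (0 overlaps). The core of the ETS factor site, CCGGAAG, was the motif most unlike the background. It occurred in 19 of 40 member promoters (47.5%). The background was 9.12% of the 27025 promoters in the table and 17.9% of the 10056 promoters of genes tested here. Neither background was matched to the members in level, and the part of level in this difference was not tested. Most of the 26 matches lay near the start, with 22 of them beginning within 100 bases before it or after it and a median position of -39.5, and 7 promoters held at least 2 matches. In the windows printed above, Ppil1 held 2 ETS matches, beginning 40 bases before the start and 1 base after it, Sf3b2 held 1 at 11 bases before it and Sf3a1 held 1 at 7 bases before it.

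Other motifs were closer to their background. The GC box GGGCGG, bound by Sp1, was in 60% of member promoters, against 63.6% of the promoters of genes tested and 35.9% of all promoters. The E-box CACGTG was in 2 member promoters (5%), Prpf3 and Snrpa, against 10.2% of genes tested and 7.24% of all. The YY1 motif was in 1 (Sf3a1, where it lies on the opposite strand) and the NRF1 motif in 1 (Snrnp70), each 2.5% of member promoters, where genes tested had 1.63% and 2.07% and all promoters 0.699% and 0.977%. None of the 5 motifs was in the Cwc22 window, which was also poor in G and C at 42%. The median G and C content of member promoters was 58.7%, with a median of 23 CpG dinucleotides, and promoters of genes tested had 60.7% and 20. A match is a run of letters and not a shown binding site, and the 3 members at an unadjusted p under 0.05 had 3 different sets of motifs.

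U1 proteins, which recognise the 5′ splice site, all had small positive values, with log2 fold changes of 0.061 for Snrnp70, 0.018 for Snrpa and 0.029 for Snrpc. Of 16 alternatives, 3 gave a negative value for Snrpa and 1, without Ddx41+/- replicate 7, for Snrpc. Snrnp70, the U1 protein that binds a stem of U1 RNA, was at 356 to 428 CPM in Ddx41+/+ and 394 to 433 CPM in Ddx41+/-. The ranges overlapped for all 3 U1 genes.

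Sm proteins form the ring that sits on U1, U2, U4 and U5 RNA, and they held both the most abundant member per length (Snrpb) and the largest standard error (0.12, for Snrpd1). Of the 7 genes 4 had positive and 3 negative values, with a median of 0.0096. Snrpg was at 103.8, 134.1, 142.3 and 125.4 CPM in Ddx41+/+ and 129.3, 97.9 and 109.7 CPM in Ddx41+/-, so that the low samples were Ddx41+/+ replicate 1 and Ddx41+/- replicates 7 and 8. Its log2 fold change of -0.17 (SE 0.11, edgeR adjusted p = 0.637) was nearly as large as that of Prpf3, with a far wider spread. Snrpd3, at 127 to 147 CPM in Ddx41+/+ and 139 to 163 CPM in Ddx41+/-, had a log2 fold change of 0.13 (SE 0.073, adjusted p = 0.549), and Snrpb, at 359 to 367 and 319 to 363 CPM, one of -0.10 (SE 0.059, adjusted p = 0.582). Snrpd1 was at 172 CPM in Ddx41+/- replicate 7 and at 117 to 152 CPM in the 6 other samples.

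The U2 particle was examined through 3 sets of genes. The SF3a subunits Sf3a1, Sf3a2 and Sf3a3 had log2 fold changes of 0.014, -0.0027 and -0.011, the flattest of all sets. The 7 SF3b genes ran from -0.10 for Phf5a to 0.062 for Sf3b2, with 4 positive and 3 negative. Snrpa1 and Snrpb2, U2 proteins that formed the third set, both had positive values, and for both the ranges overlapped. The values were 0.085 (SE 0.065, edgeR adjusted p = 0.688) and 0.13 (SE 0.097, adjusted p = 0.675). Among the U2 genes, Snrpb2 varied most over the Ddx41+/+ samples, from 55.9 CPM in Ddx41+/+ replicate 1 to 76.3 CPM in Ddx41+/+ replicate 3.

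Genes whose human counterparts are mutated in myelodysplastic syndrome were described whatever their change. Sf3b1 (chromosome 1, 54985169 to 55027481), the SF3b subunit that holds the branch site helix, was at 532, 530.3, 556 and 518 CPM in Ddx41+/+ and 529, 536 and 544 CPM in Ddx41+/-. The Ddx41+/- samples all lay inside the Ddx41+/+ range, and the log2 fold change was 0.0063 (SE 0.055, 95% interval -0.11 to 0.12). U2af1 (chromosome 17, 31647081 to 31658892), which binds the AG at the end of the intron, was at 135.8, 142, 142.3 and 142.7 CPM in Ddx41+/+ and 144.8, 143.3 and 132.9 CPM in Ddx41+/-, with both the highest and the lowest sample in Ddx41+/- (log2 fold change -0.0035, interval -0.13 to 0.13). Its partner U2af2 (chromosome 7, 5062143 to 5079938), which binds the polypyrimidine tract, spanned 361 to 392 CPM in control samples and 356 to 405 CPM in Ddx41+/- samples (log2 fold change 0.028, interval -0.10 to 0.16). Zrsr2 (chromosome X, 163935443 to 163958661), which acts at the 3′ splice site of minor introns, was at 33.1, 36.2, 40.4 and 36.5 CPM in Ddx41+/+ and 32.4, 38.9 and 35.7 CPM in Ddx41+/-, again with overlap (log2 fold change -0.034, interval -0.23 to 0.17). Sf3a1 (chromosome 11, 4160350 to 4182541), at 255 to 267 CPM in Ddx41+/+ and 249.9 to 267 CPM in Ddx41+/-, had a log2 fold change of 0.014 (interval -0.11 to 0.13). The sign of each of these 5 values changed in at least 1 alternative fit.

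Prpf8 (chromosome 11, 75486816 to 75509449), the U5 protein that forms the scaffold of the active site, is also mutated in myeloid neoplasms. It was at 855, 739, 713 and 772 CPM in Ddx41+/+ and 812, 825 and 859 CPM in Ddx41+/-. Ddx41+/+ replicate 1 was as high as the Ddx41+/- samples, while the other 3 Ddx41+/+ samples were below them. The log2 fold change was 0.11 (SE 0.066, interval -0.027 to 0.25, edgeR adjusted p = 0.58). Snrnp200, the U5 helicase that unwinds U4 from U6, followed the same order of samples, at 369, 316, 298 and 338 CPM in Ddx41+/+ and 346, 350.4 and 384 CPM in Ddx41+/- (log2 fold change 0.13, SE 0.072, adjusted p = 0.574). Both genes passed an unadjusted p of 0.05 in 2 of 16 alternatives, with quality weights and without Ddx41+/+ replicate 1. The U5 GTPase Eftud2 was at 0.045, and Snrnp40 and the bridging protein Prpf6 were at -0.04 and -0.0052 on the log2 scale.

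Apart from Prpf3, the U4/U6 and tri-snRNP genes stayed close to 0, with log2 fold changes of -0.072 for Prpf4, -0.0075 for Prpf31, 0.038 for Sart1 and 0.033 for Usp39. Prpf3 and Prpf4 encode proteins that bind each other and the same U4/U6 stem, and Prpf4 was at 74.9, 77.1, 78.9 and 80.8 CPM in Ddx41+/+ and 76.1, 72.5 and 73.7 CPM in Ddx41+/-, with overlap in Ddx41+/- replicate 6 alone. The B complex genes Prpf38a and Prpf38b were at -0.062 and 0.014. Of 11 genes of the Prpf19 complex and its partners, which stabilise the catalytic RNA, 7 had negative and 4 positive values, with a median of -0.066. Among them Prpf19, the ubiquitin ligase of the complex, was at 347 to 359 CPM in Ddx41+/+ and 311 to 355 CPM in Ddx41+/- (log2 fold change -0.075, SE 0.06, edgeR adjusted p = 0.701), and Crnkl1 had the highest value, 0.13 (SE 0.083, adjusted p = 0.633). Cwc15 (0.026) and Isy1 (-0.066), the members with the highest and the lowest level per length in this set, overlapped between genotypes. The second-step factors Slu7 and Cdc40 were at 0.023 and 0.0034, beside Cwc22 in the catalytic set.

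Levels of different genes were compared as CPM per kilobase (kb) of merged exon, in Ddx41+/+ samples. They spanned from 183 ± 1.74 for Snrpb to 5.08 ± 0.415 for Zrsr2 (SD, n = 4), around the level of 39.5 for Bud31 at the middle of the order. After Snrpb followed Snrpf (147.8), Prpf8 (103.2) and U2af2 (91.8). Snrpb, Snrpf and Prpf8 each differed from the next gene beyond its spread, in that their ranges over the Ddx41+/+ samples did not touch, whereas the range of U2af2 overlapped that of Snrpg (80.5). The rest of the order was mostly not resolved, and over the whole list 43 of the 50 pairs of neighbours had overlapping ranges. The lowest were Zrsr2, Cwc22 (9.82 ± 0.606) and Snrpc (10.9 ± 0.386), with Zrsr2 separate from Cwc22. The Sm ring spread from 39.6 for Snrpd3 to 183 for Snrpb, with each of its 7 proteins present once in a ring. Within SF3a, from 42.1 for Sf3a1 to 59.4 for Sf3a2, and within the set of Snrpb2 (22.9) and Snrpa1 (28.1), levels were closer. SF3b ran from 20.9 for Sf3b5 to 75.2 for Sf3b2, U5 from 26.7 for Prpf6 to 103.2 for Prpf8, and the U4/U6 and tri-snRNP set from 12.3 for Prpf3 to 40.1 for Usp39. The order depends on the length used. With the longest annotated transcript in place of merged exons, Snrpb stayed first and Zrsr2 last, and Prpf8 moved from rank 3 to rank 10.

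**Figure D3:**
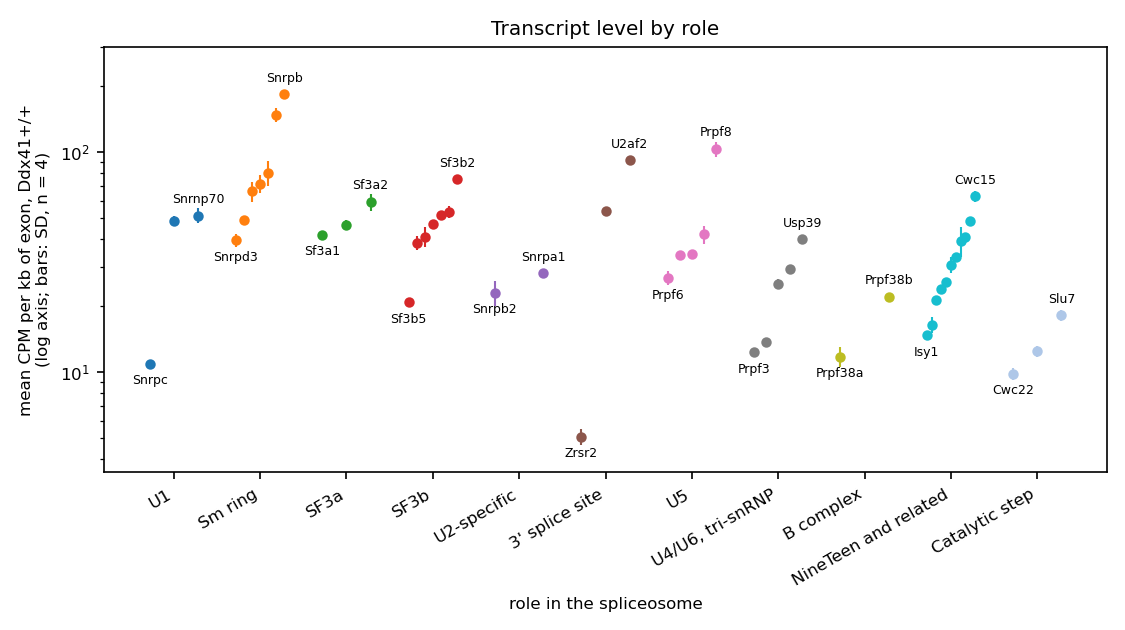
Mean CPM per kb of merged exon in Ddx41+/+ samples (y axis, log scale; bars are SD, n = 4) for each core spliceosome gene, set out by role (x axis), with the highest and lowest gene of each role named. Snrpb at 183 and Zrsr2 at 5.08 are the extremes.

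Members varied little between control samples. The coefficient of variation of CPM over the 4 Ddx41+/+ samples had a median of 4.82%, against 6.1% for the 5934 genes tested at or above the level of the lowest member and 9.54% for all genes tested. Neither set was matched to the members in level, and the part of level in this difference was not tested. It ran from 0.95% for Snrpb to 15.7% for Bud31, a partner of the Prpf19 complex at 51.5, 67.4, 74.9 and 60.3 CPM in Ddx41+/+ replicates 1 to 4. The lowest count of any member in any sample was 1278, for Zrsr2.

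What variation there was ran along samples. Among the Ddx41+/+ samples, replicate 3 was highest for 23 of 51 members and replicate 1 lowest for 22. Among the Ddx41+/- samples, replicate 6 was highest for 25 and replicate 8 lowest for 26. Ddx41+/- replicate 7 was either the highest or the lowest of all 7 samples for 27 members, 13 times the highest and 14 times the lowest, and Ddx41+/+ replicate 3 came next, 14 times the highest and 9 times the lowest.

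**Figure D4:**
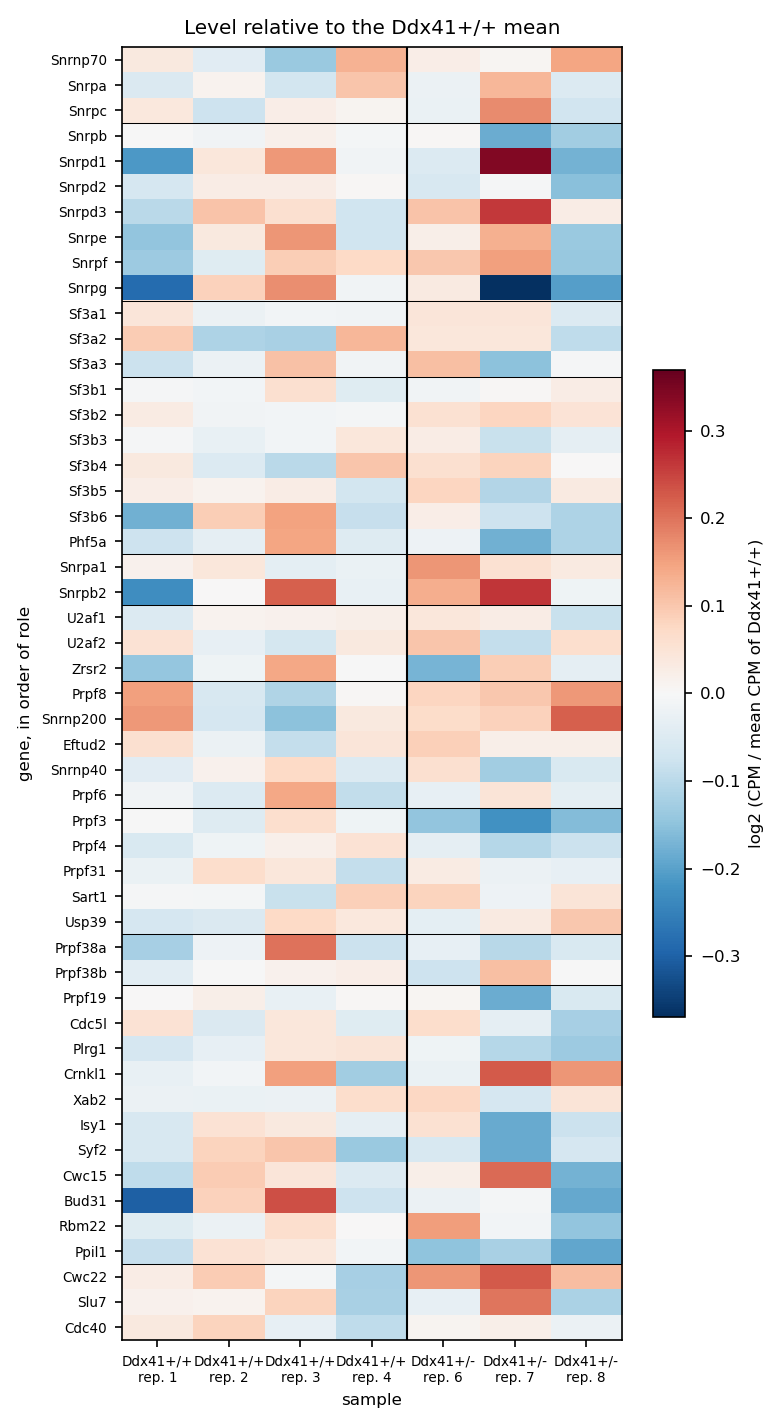
Log2 ratio of CPM to the Ddx41+/+ mean (colour) for 51 core spliceosome genes (rows, in order of role, with black lines between roles) in 7 samples (columns, with a black line between genotypes). Single samples, such as Ddx41+/+ replicates 1 and 3 and Ddx41+/- replicate 7, carry most of the deep colours, and no role is uniform in colour across the 3 Ddx41+/- samples.

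Part of the sample pattern went with gene length. Between Ddx41+/+ replicates 3 and 1, the difference in log2 CPM had a Spearman correlation with merged exon length of -0.57 over the 51 members and -0.25 over 12846 genes tested with a length, values across genes that share the same libraries. Over the members this pair had the largest correlation in size of all pairs of samples. The pairs ran from it to 0.57 (Ddx41+/- replicate 8 minus Ddx41+/+ replicate 3), with some near 0, such as -0.029 (Ddx41+/- replicate 6 minus Ddx41+/+ replicate 4). Of the 26 shorter members (861 to 3859 bp) 21 were higher in replicate 3, with a median difference of 0.15, and of the 25 longer ones (3987 to 11370 bp) 12 were, with a median of -0.0071. The deviation of single samples from the member means correlated with length at 0.48 in Ddx41+/+ replicate 1 and 0.6 in Ddx41+/- replicate 8. It was at -0.3 and -0.5 in Ddx41+/+ replicates 2 and 3. In Ddx41+/- replicate 6 it was at -0.071, in Ddx41+/+ replicate 4 at -0.043, and in Ddx41+/- replicate 7, the sample most often at an extreme, at -0.054. The ribosomal RNA precursor Rn45s took 2.92% of the counts in Ddx41+/+ replicate 3, the most, and 0.623% in Ddx41+/- replicate 8, the least. Next to these were Ddx41+/- replicate 7 at 2.58% and Ddx41+/+ replicate 4 at 0.876%, samples whose deviation hardly correlated with length. The part of Rn45s in the length pattern was not tested. The log2 fold change between genotypes had a Spearman correlation of 0.23 with length across the 51 members.

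**Figure D5:**
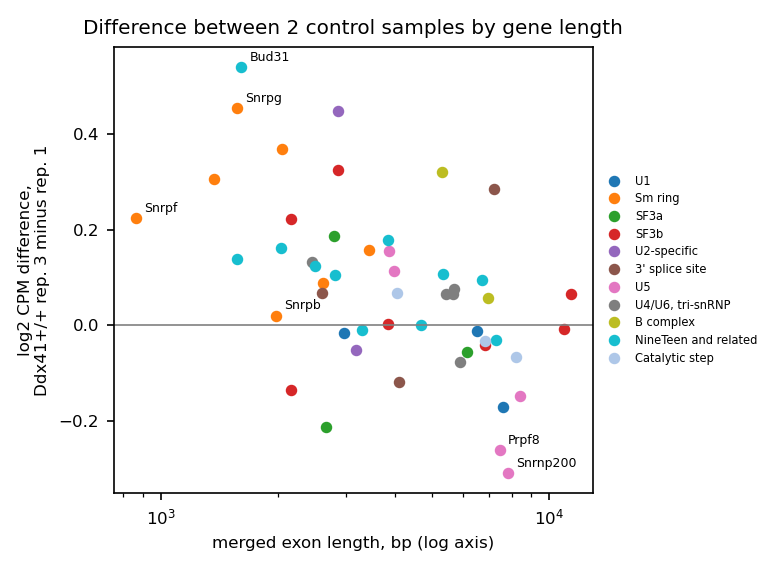
Difference in log2 CPM between Ddx41+/+ replicates 3 and 1 (y axis) against merged exon length in bp (x axis, log scale) for 51 core spliceosome genes, coloured by role. Short genes such as Bud31 and Snrpg lie above 0, and the long U5 genes Prpf8 and Snrnp200 lie below it (Spearman correlation -0.57, the largest in size of all pairs of samples).

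Several member transcripts share sequence with other genes, which bears on how far their counts can be trusted. Windows were taken from the longest annotated transcript of each member alone. For 26 members no 75-base window of that transcript occurs in a transcript of another gene, and for 12 more than 10% do. Ppil1 is among the 26, although 7.53% of its merged exon length overlaps an antisense gene. Snrpf had the most, 85.4%, and its exons overlap those of Ccdc38 on the opposite strand, a gene with only 3 to 24 counts per sample. U2af1 (53.9%, with Gm10232 and other genes), Sf3b4 (43.8%, with Gm7935 and another gene) and Cdc5l (31.1%) followed. Exons of 18 members overlap another gene. Ddx41 itself overlaps an antisense gene over 17.4% of its merged exon length and shares 5.11% of its windows. Without the strand setting of the counting the reads of 2 overlapping genes cannot be told apart. Leaving out the 12 members kept the median at 0.0048 and left 2 at an unadjusted p under 0.05, Prpf3 and Ppil1.

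Proteins around the core were taken from a list of 68 further genes of the pathway. Of these none passed the edgeR test after adjustment, and 6 (8.82%) were at an unadjusted p under 0.05, 2 higher and 4 lower in Ddx41+/-, beside 10.6% of all genes. DESeq2 and limma-voom also called none after adjustment and had 6 each at an unadjusted p under 0.05. The median log2 fold change of the 68 was 0.0077, and the genotypes did not overlap in 9 (13.2%), beside 10.1% of all genes tested. In the U6 Lsm ring, Lsm2 had the smallest p of 7 genes, at 66, 70.6, 73.8 and 69.3 CPM in Ddx41+/+ and 63, 62.8 and 55.3 CPM in Ddx41+/- (log2 fold change -0.21, SE 0.074, adjusted p = 0.318). Gemin4, of the SMN complex that loads Sm rings onto RNA, reached 85.9% of its level in control samples, with a log2 fold change of -0.22 (SE 0.073) and an edgeR adjusted p of 0.3. Neither of these genes overlapped between genotypes. Ppie, Luc7l and Aqr were also at an unadjusted p under 0.05, with log2 fold changes of -0.22, -0.2 and 0.17. The other 3 sets had no gene at an unadjusted p under 0.05, and the genes with the smallest p in them were Txnl4a in the tri-snRNP (log2 fold change -0.12), Snrnp35 in the minor spliceosome (0.26, at 11.2 to 13.2 CPM in Ddx41+/+ and 13.3 to 15.1 CPM in Ddx41+/-) and Casc3 in the exon junction complex (-0.11), with edgeR adjusted p-values of 0.515, 0.499 and 0.592.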

How the data were processed

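LSK cells of 4 Ddx41+/+ and 3 Ddx41+/- samples were profiled by poly(A) RNA-seq. Per the labels the library kit was TruSeq Stranded mRNA, while the methods of the study name a TruSeq RNA kit that does not mark strand. The authors mapped the reads and deposited whole-number counts for each gene symbol without normalization. The submitters' processing notes name FastQC 0.11.7, HISAT2 2.0.5, featureCounts 1.5.2 and the mm10 build. Their settings, the use of strand, the handling of shared reads and whether reads or pairs were counted are not given in the sources used here. All columns of sample values were used.

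Genotypes were compared in R 4.3.3 with edgeR 4.0.16, using a robust quasi-likelihood fit on TMM-scaled libraries after filterByExpr by genotype, with Benjamini-Hochberg adjustment over all 13340 genes tested at a threshold of 0.05. The biological coefficient of variation was 12.9%. Intervals cover 95%. A result for 1 gene of the wider pathway is not reported here. CPM used TMM-scaled library sizes, and log2 CPM a prior count of 2. Gene positions, exon lengths and shared 75-base windows came from GENCODE M21, and promoters from RefSeq. Alternatives were median-of-ratios, library-total and upper-quartile scaling, no filter, a non-robust fit, limma-voom (limma 3.58.1) without and with sample quality weights, DESeq2 1.42.0, omission of Rn45s, and omission of each sample in turn. Omission of members with shared sequence, the other gene length, and the interval counts of the alternative fits were added after the data were seen. The procedure was tested on simulated data that held no length pattern between samples, so that test does not cover such a pattern.

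Members, gene lists and motifs were chosen with earlier results of these data known. Named genes were Ddx41, members at an unadjusted p under 0.05, Sf3b1, U2af1, U2af2, Zrsr2, Prpf8 and Sf3a1, the members with the highest and lowest CPM per kb of each role, and of each further list the gene with the smallest p. Other members were named after their values were seen. Further genes were matched by symbol, with Snu13 under its older symbol Nhp2l1.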

Additional observations from a re-analysis of the deposited data

Results flagged for a closer look

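In each set of 4 Ddx41+/+ samples, the gap between an extreme sample and its nearest neighbour was set against the whole range (Dixon's ratio, against its 95% critical value for 4 samples). Of 52 genes checked, the 51 members and Ddx41, 5 had a sample beyond it, where chance gives about 1 in 20, or 2.6. Xab2 stood at 117.1 CPM in replicate 4, above the 3 others (ratio 0.965). U2af1 stood at 135.8 CPM in replicate 1, below the others (0.903). Sf3b2 at 524.3 CPM (0.876) and Sf3a1 at 266.9 CPM (0.854) stood above the others in replicate 1, and Sf3b5 at 76.5 CPM (0.864) stood below them in replicate 4. The Sf3b2 value is the control sample nearest to the Ddx41+/- samples, which it did not reach. All 5 extreme values differ from their group by small amounts, since the coefficients of variation of these genes in Ddx41+/+ were 1.44% to 3.07%.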

How the results depend on the processing

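No paired analysis was made, because the sources used here give no pairing or batch of the samples. The replicate numbers (1 to 4 and 6 to 8) do not show whether samples were paired. No member passed adjustment in any of the 16 alternatives, and 25 of 51 members kept their sign in all of them. The count of members at an unadjusted p under 0.05 was 3 or 4 in the 9 alternatives with all samples and 1 to 6 with a sample left out, with 1 without Ddx41+/- replicate 7 and 6 without Ddx41+/+ replicate 1. Members with a 95% interval within 0.32 of 0 numbered 41 to 49 over the alternative edgeR fits. The count of all genes called after adjustment was 156 with DESeq2, 91 without a filter, 15 with library totals, 14 with the non-robust fit, 10 with limma-voom, and 7 to 41 with a sample left out, of which 7, 16, 14 and 9 came without Ddx41+/+ replicates 2 and 3 and Ddx41+/- replicates 7 and 8. Causes were not tested.

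Log2 fold changes near 0 changed sign. With library totals they were -0.0077 for Sf3b1, -0.0015 for Sf3a1, -0.011 for Sf3b5 and -0.00079 for Prpf38b, and with upper-quartile scaling -0.0017 for Sf3b1 and -0.0049 for Sf3b5. For Sf3a2 they were 0.00045 with DESeq2, 0.00049 with median-of-ratios scaling and 0.016 with quality weights, under which Prpf6 was 0.0048, Prpf38b -0.0038, Cwc15 -0.042 and Slu7 -0.011. With each sample left out in turn the ranges were -0.0083 to 0.027 for Sf3b1, -0.027 to 0.034 for U2af1, -0.012 to 0.081 for U2af2, -0.10 to 0.0298 for Zrsr2, -0.00302 to 0.045 for Sf3a1, -0.048 to 0.077 for Snrpc, -0.0404 to 0.041 for Sf3a2, -0.037 to 0.054 for Sf3b5, -0.034 to 0.046 for Prpf6, -0.0015 to 0.065 for Usp39, -0.039 to 0.056 for Prpf38b, -0.10 to 0.011 for Prpf38a, -0.075 to 0.12 for Cwc15 and -0.074 to 0.088 for Slu7.

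The median standard error of a log2 fold change of a member was 0.068, and differences of that size were not resolved with 3 Ddx41+/- samples. Gene counts hold no isoform or intron signal, so splicing itself was not measured.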
